A study of Mus musculus with 6 samples.

Results

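The kidney macrophage genes described here are 10 genes that tissue macrophages express in the mouse: *Cx3cr1*, *C1qa*, *C1qb*, *C1qc*, *Csf1r*, *Fcrls*, *Adgre1*, *Mrc1*, *H2-Ab1* and *Cd74*. They were chosen by gene symbol, current or older, in the annotation of the array platform, which gave 19 probes, between 1 and 3 per gene. Of these, 14 probes were detected on at least 3 of 6 arrays and were tested, so that all 10 genes were tested through at least 1 probe, among 10474 tested genes of 19057 genes with a named probe. The remaining 5 probes (2 of *Cd74* and 1 each of *Csf1r*, *Fcrls* and *Adgre1*) were detected on 0 arrays and were not tested.

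Whole embryonic kidneys at E15.5 were measured on Illumina MouseWG-6 v2.0 expression arrays, 3 of FoxD1GC;Dicer fl/fl kidneys (called FoxD1;Dicer here) and 3 of control kidneys, 1 of each from each of 3 litters. In the FoxD1;Dicer embryos a fusion of eGFP and Cre recombinase, expressed from the endogenous *Foxd1* locus in the renal stroma, deletes both floxed copies of *Dicer1*, the gene of the enzyme that cuts precursor miRNAs to their mature length, from the stroma and its descendants. Mice carrying floxed *Dicer1* were of the C57BL/6J strain and FoxD1GC mice of a different one. The controls were Cre-negative littermates, and their *Dicer1* alleles are not given in the sources used here. As the controls carry no Cre, the Cre allele at *Foxd1* and the loss of *Dicer1* cannot be told apart. Each array held RNA pooled from 2 embryos of 1 genotype and litter. The p-values rest on the spread over litters of the difference between the 2 pools of a litter, which limma draws toward that of all tested probes.

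Macrophages of the embryonic kidney descend from yolk sac and fetal liver progenitors and enter the organ from outside, so they do not belong to the *Foxd1* lineage in which the Cre is expressed. They depend on signalling through the Csf1 receptor, clear dying cells, and secrete the 3 chains of C1q, the recognition molecule of the classical complement pathway. The MHC class II chain H2-Ab1 and its invariant chain Cd74 serve antigen presentation and are also made by dendritic cells and B cells.

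The arrays carried macrophage transcripts close to their background. The median bead signal of an array was 106.3 to 123.7, the median of its undetected probes 98.4 to 113.7, and 37.5% to 44.7% of probes were detected. The brightest tested probes of the 10 genes had bead signals of 102.8 to 388.8. *Dicer1* averaged 7.53 ± 0.20 in FoxD1;Dicer and 7.86 ± 0.23 in control kidneys on the normalized log2 scale (SD, n = 3 each), a log2 fold change of -0.33 (SE 0.21, adjusted p = 0.86 in limma). *Foxd1* had a log2 fold change of -0.32 (SE 0.20). *Xist*, the RNA that coats the silenced X chromosome in female cells, was at 9.39 and 9.64 on the FoxD1;Dicer arrays of litters 2 and 3 and at 9.64 on the control array of litter 1, and between 4.54 and 4.61 on the other 3 arrays. The 2 pools of each litter therefore differed in *Xist*, and in litter 1 the difference ran opposite to that in litters 2 and 3.

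In FoxD1;Dicer kidneys at E15.5, 8 of the 10 macrophage genes had a positive log2 fold change against control and 2, *C1qa* and *H2-Ab1*, a negative one. The largest differences were those of *Cx3cr1* (0.87), *Fcrls* (0.73), *C1qc* (0.59) and, downward, *H2-Ab1* (-0.57). The order among the positive genes depended on the processing: the series-matrix values gave *C1qb* 0.21, *Fcrls* 0.21, *C1qc* 0.19 and *Cx3cr1* 0.18, and values without background correction gave *Fcrls* 0.36 and *Cx3cr1* 0.34. The median over the 10 genes was 0.22, beside -0.04 over all tested genes, of which 43.7% were positive. Within litters 1, 2 and 3 the median of the 10 was 0.44, 0.43 and -0.05 (SD over litters 0.28), against -0.01, -0.02 and -0.11 over all genes. None of the 10 was called: 0 had a *B*-statistic above 0, the threshold of the methods, and likewise 0% of all tested genes. The paper, with limma, litter in its model and this threshold, did report differentially expressed genes at E15.5. The count of 0 over all genes belongs to the processing used here, and array weights gave 150. *B* is the log odds of a difference, and it was -5.13 to -2.60 for the 14 probes, with adjusted p of 0.86 to 0.99 in limma. RNA of whole kidneys cannot tell a different number of macrophages from a different amount of RNA per macrophage.

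**Figure D1:**
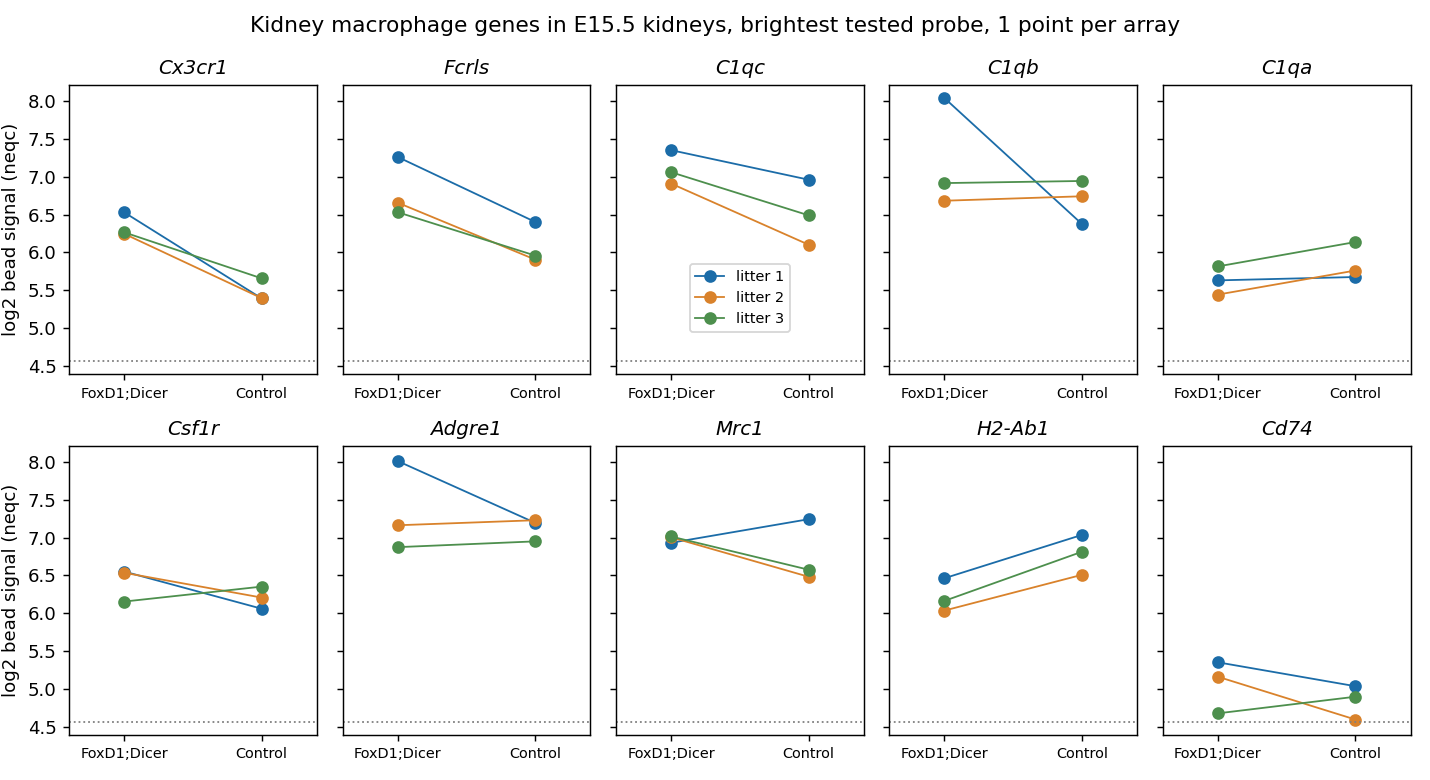
Normalized log2 bead signal (vertical axis) of the 10 macrophage genes on each array, FoxD1;Dicer on the left and control on the right of each panel, with lines joining the arrays of a litter and a dotted line at the mean over arrays of the median undetected probe. The lines of *Cx3cr1*, *Fcrls* and *C1qc* are higher at the FoxD1;Dicer end in all 3 litters, those of *C1qa* and *H2-Ab1* are lower in all 3, and the *C1qb* difference lies in litter 1.

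Below a *B* of 0, 3 of the 10 genes had an unadjusted p under 0.05 and were higher in FoxD1;Dicer kidneys, namely *Cx3cr1*, *Fcrls* and *C1qc*, beside 2.13% of all tested genes. The same 3 were higher in every litter, beside 9.86% of all tested genes. For *Cx3cr1* and *Fcrls* all 3 FoxD1;Dicer arrays lay above all 3 control arrays, which held for 5.1% of all tested genes. In the other direction, *H2-Ab1* had an unadjusted p under 0.05, beside 3.23% of all genes, and its groups did not overlap, beside 8.23%. *C1qa* and *H2-Ab1* were lower in every litter, as were 1625 of the 10474 tested genes, so that 5 of the 10 went the same way in all litters, beside 25.4% of all tested genes. The 10 genes were chosen with earlier results of these data known. The counts and medians set beside those of all tested genes are therefore descriptions, not tests.

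The 250 bases upstream of the start of the 3 genes that were higher in every litter are shown to set their sequences beside their values, from RefSeq (build GRCm38.p6), read in the direction of the gene. Short motifs bound by ETS family factors, to which the macrophage regulator PU.1 belongs, were searched on both strands and are in capitals: GAGGAA and AGGAAGT, or their reverse complements TTCCTC and ACTTCCT. The windows lie on the minus strand at chr9:120068297-120068546 (*Cx3cr1*), chr3:87263525-87263774 (*Fcrls*) and chr4:136892915-136893164 (*C1qc*).
Cx3cr1: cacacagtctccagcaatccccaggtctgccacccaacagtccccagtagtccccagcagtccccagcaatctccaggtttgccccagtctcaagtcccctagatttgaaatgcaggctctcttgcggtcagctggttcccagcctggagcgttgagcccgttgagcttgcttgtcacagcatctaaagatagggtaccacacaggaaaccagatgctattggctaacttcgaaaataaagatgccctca
Fcrls: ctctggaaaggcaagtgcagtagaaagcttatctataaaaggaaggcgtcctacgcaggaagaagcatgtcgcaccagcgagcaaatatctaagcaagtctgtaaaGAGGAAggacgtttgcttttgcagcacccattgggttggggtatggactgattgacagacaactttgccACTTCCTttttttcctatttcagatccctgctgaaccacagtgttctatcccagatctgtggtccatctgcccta
C1qc: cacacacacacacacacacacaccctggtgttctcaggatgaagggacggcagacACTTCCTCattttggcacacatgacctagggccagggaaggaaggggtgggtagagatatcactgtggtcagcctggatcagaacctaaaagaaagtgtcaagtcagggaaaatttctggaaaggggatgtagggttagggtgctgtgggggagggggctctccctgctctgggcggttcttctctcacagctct
The *Fcrls* window holds each motif at 1 place, apart from each other, the *C1qc* window holds them overlapping in 1 stretch, and the *Cx3cr1* window holds neither. Windows were read for 5 of the 10 members, and those of *Csf1r*, *Cd74*, *C1qa*, *Adgre1* and *H2-Ab1* were not used here. Of the 5, *C1qb*, *C1qc*, *Fcrls* and *Mrc1* had both motifs. Among 32851 windows of the same length, 23.3% held GAGGAA, 7.69% held AGGAAGT, 27.3% held either and 3.67% held both. A match describes these letters and is not a binding site.

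*Cx3cr1* encodes the receptor of the chemokine fractalkine (Cx3cl1) and is a marker of resident macrophages and microglia. Its single probe had bead signals of 200.9, 158.2 and 153.0 on the FoxD1;Dicer arrays of litters 1, 2 and 3, against 135.3, 142.0 and 147.8 on the control arrays. After normalization these were 6.53, 6.25 and 6.27 in FoxD1;Dicer kidneys and 5.39, 5.39 and 5.66 in control kidneys on the log2 scale. The control values lay close together and every FoxD1;Dicer value lay above them. The log2 fold change was 0.87 (SE 0.21, 95% interval 0.37 to 1.36, adjusted p = 0.86 in limma), a 1.82-fold difference, and the litters gave 1.14, 0.85 and 0.61. Its size depended on the background correction of a low signal, with 0.34 without that correction and 0.18 in the series-matrix values. Of the 14 alternative settings, array weights put its *B* above 0 (log2 fold change 0.83, adjusted p = 0.053 in limma), and the other settings that tested it did not.

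*Fcrls* encodes an Fc receptor-like scavenger receptor of microglia and other resident macrophages. Its brightest probe was at 7.26, 6.66 and 6.53 in FoxD1;Dicer kidneys and at 6.40, 5.91 and 5.96 in control kidneys. In both groups litter 1 was the highest, and each FoxD1;Dicer array was above the control arrays. The log2 fold change was 0.73 (SE 0.20, 95% interval 0.26 to 1.20, adjusted p = 0.86 in limma). A dimmer probe, detected on 3 FoxD1;Dicer and 2 control arrays, gave 0.61 (SE 0.26), with 5.25, 6.28 and 5.83 in FoxD1;Dicer and 5.24, 5.55 and 4.73 in control kidneys. This second probe had its difference in litters 2 and 3 and nearly none (0.01) in litter 1, where the brightest probe had its largest.

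*C1qc*, *C1qb* and *C1qa* encode the chains that assemble into C1q and are neighbours on chromosome 4. *C1qc* was at 7.35, 6.91 and 7.06 in FoxD1;Dicer kidneys and at 6.96, 6.10 and 6.49 in control kidneys, and the control array of litter 1 overlapped the FoxD1;Dicer values. Its log2 fold change was 0.59 (SE 0.20, 95% interval 0.11 to 1.07, adjusted p = 0.86 in limma), from 0.39, 0.81 and 0.57 in the litters. *C1qb* was at 8.04, 6.68 and 6.92 in FoxD1;Dicer kidneys and at 6.38, 6.74 and 6.95 in control kidneys. Its log2 fold change of 0.53 (SE 0.36) came from litter 1 (1.67), with -0.06 and -0.03 in litters 2 and 3, and was -0.04 without litter 1. Litter 1 was also the litter whose *Xist* difference ran opposite to the others. With *Xist* as a covariate the *C1qb* value was 0.80 (SE 0.15). *C1qa* was at 5.63, 5.44 and 5.82 in FoxD1;Dicer kidneys and at 5.67, 5.76 and 6.14 in control kidneys, a log2 fold change of -0.23 (SE 0.20) with the groups overlapping. The 3 chains thus had fold changes of both signs, whose differences from each other were not tested.

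**Figure D2:**
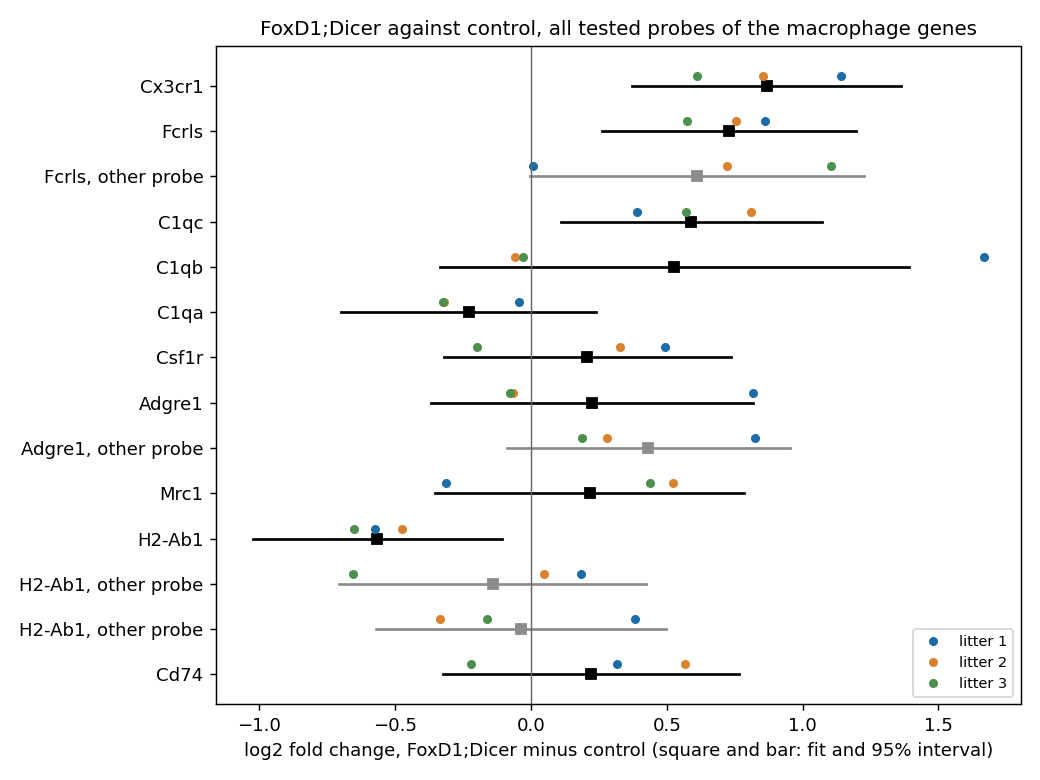
Log2 fold change of FoxD1;Dicer against control (horizontal axis) for the 14 tested probes, as the fitted value with its 95% interval (squares and bars, black for the brightest probe of a gene and grey for other probes) and as the difference within each litter (coloured points). The intervals of *Cx3cr1*, *C1qc* and the brightest *Fcrls* probe lie above 0 and that of the brightest *H2-Ab1* probe below it, before any adjustment over probes, and those of the other 10 probes include 0.

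*Csf1r*, the receptor for Csf1 and Il34 on which macrophages depend, was at 6.55, 6.54 and 6.15 in FoxD1;Dicer kidneys and at 6.06, 6.21 and 6.35 in control kidneys. The groups overlapped, and the log2 fold change was 0.21 (SE 0.22, 95% interval -0.32 to 0.74), or 0.07 without litter 1 and 0.41 without litter 3. *Adgre1* (older symbol *Emr1*) encodes an adhesion receptor that is the classical surface marker of mouse tissue macrophages. Its brightest probe was at 8.01, 7.16 and 6.87 in FoxD1;Dicer kidneys and at 7.20, 7.23 and 6.95 in control kidneys. The log2 fold change of 0.22 (SE 0.25) lay in litter 1 (0.82), with -0.07 and -0.08 in the others, and was -0.07 without litter 1. With *Xist* as a covariate it was 0.37 (SE 0.15). A dimmer *Adgre1* probe was higher in every litter (0.83, 0.28 and 0.19) without overlap of the groups, with a log2 fold change of 0.43 (SE 0.22). *Mrc1*, the mannose receptor CD206, was at 6.93, 7.01 and 7.02 in FoxD1;Dicer kidneys and at 7.24, 6.48 and 6.58 in control kidneys. It was lower in litter 1 (-0.31) and higher in litters 2 and 3 (0.52 and 0.44), for a log2 fold change of 0.22 (SE 0.24).

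*H2-Ab1*, the beta chain of the MHC class II molecule I-A, was the macrophage gene with the largest negative difference. Its brightest probe was at 6.46, 6.03 and 6.16 in FoxD1;Dicer kidneys and at 7.04, 6.51 and 6.81 in control kidneys, with every FoxD1;Dicer array below the control arrays. The log2 fold change was -0.57 (SE 0.19, 95% interval -1.02 to -0.11, adjusted p = 0.86 in limma), a 1.48-fold lower signal. The other *H2-Ab1* probes had log2 fold changes of -0.14 (SE 0.24) and -0.04 (SE 0.22) and overlapping groups, and the mean over the 3 probes gave -0.25. *Cd74*, the invariant chain that escorts MHC class II molecules, was barely above background, since its single tested probe was detected on 2 FoxD1;Dicer arrays and 1 control array. It was at 5.35, 5.16 and 4.67 in FoxD1;Dicer kidneys and at 5.03, 4.59 and 4.89 in control kidneys, a log2 fold change of 0.22 (SE 0.23).

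Across the arrays, correlations between the 10 genes were of both signs, and no pairs of other genes were set beside them. Over the 6 arrays, Pearson correlations between pairs had a median of 0.46 and ranged from -0.71 (*Cx3cr1* with *H2-Ab1*) to 0.91 (*C1qc* with *Fcrls*), with 29 of 45 pairs above 0. *Cx3cr1* and *Fcrls* correlated at 0.83 and *C1qb* and *Adgre1* at 0.78, whereas *C1qa* and *Fcrls* stood at -0.60. These 6 arrays share litters and genotypes, and the correlations are descriptions. The mean level of the 10 genes was 6.81, 6.38 and 6.35 on the FoxD1;Dicer arrays and 6.34, 6.09 and 6.28 on the control arrays. The FoxD1;Dicer array of litter 1 was the highest of all. Without *C1qb* the means were 6.68, 6.35 and 6.28 on the FoxD1;Dicer arrays and 6.33, 6.02 and 6.20 on the control arrays, so that the groups overlapped.

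Other genes of macrophages were described from lists chosen beside the 10. Of 30 macrophage identity genes, 19 were tested, 16 had a positive and 3 a negative log2 fold change, with a median of 0.20, and within the litters 0.40, 0.32 and 0.11. None of the 19 had a *B* above 0. The 3 negative genes were *Csf2ra* (-0.47, with 0.40, -0.92 and -0.87 in the litters), the transcription factor *Irf8* (-0.27) and *Ms4a7* (-0.01). *Cd53*, a leukocyte tetraspanin, was at 7.03, 6.69 and 6.74 in FoxD1;Dicer kidneys and at 6.04, 6.53 and 5.90 in control kidneys, with no overlap and a log2 fold change of 0.66 (SE 0.24, adjusted p = 0.86 in limma). *Csf3r*, the G-CSF receptor of myeloid cells, was at 5.71, 5.49 and 5.02 in FoxD1;Dicer kidneys and at 5.26, 4.61 and 4.44 in control kidneys. It was detected on 3 FoxD1;Dicer arrays and 1 control array, so that it was tested only because of the group in which it was high. The same holds for *Trem2* (0.35), detected on 3 FoxD1;Dicer arrays and 0 control arrays. The counts and the median of the list include both genes. The list's brightest probes were those of *Lyz1* (0.05) and *Lyz2* (0.13), the lysozymes, and *Laptm5*, a lysosomal membrane protein of leukocytes (0.55, from 1.25, 0.34 and 0.05 in the litters). Probes of 8 genes of the list were not detected widely enough to be tested. Among them were the transcription factors *Spi1* (PU.1) and *Maf* and the receptors *Cd14*, *Itgam* and *Fcgr1*.

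Genes of microglia-like and other tissue-resident macrophages were all on the positive side among those tested, 8 of 8 of the 11 listed, with a median of 0.27 and none with a *B* above 0. *P2ry12*, the ADP receptor typical of microglia, was at 5.44, 5.45 and 5.42 in FoxD1;Dicer kidneys and at 5.10, 4.83 and 4.84 in control kidneys. It was detected on 3 FoxD1;Dicer arrays and 1 control array, so that it was tested only because of the FoxD1;Dicer arrays. Its fitted value of 0.52 is set against controls that were mostly not above background. The count of 8 and the median include this gene. *Apoe*, the apolipoprotein of lipid-handling macrophages, which other kidney cells can also make, had 0.53 (SE 0.20) without overlap. *Sall1*, a factor of microglia but also of nephron progenitors, had 0.32 (SE 0.19), and *Olfml3* and *Sparc*, both also expressed outside macrophages, had 0.32 and 0.02.

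The remaining macrophage lists had negative medians. Of 12 genes of scavenger and perivascular macrophages, 6 were tested and 5 were negative, with a median of -0.11. The brightest of them were *Stab1*, a scavenger receptor also of endothelium (-0.17), *Igfbp4*, a secreted binding protein of insulin-like growth factors (-0.59), and *Pf4*, a chemokine shared with platelets (-0.04). The *Igfbp4* difference was 0.20, -0.82 and -1.16 in the litters, and the cells that carried it were not told apart in whole kidneys. *Cd163*, *Folr2* and *Timd4* were not tested. Of 13 MHC class II genes other than the members, 6 were tested, 2 positive and 4 negative, with a median of -0.12, none called. *H2-DMb2*, a chain of the peptide-loading molecule H2-DM, had -0.36, *Rfxap*, a subunit of the factor that drives MHC class II promoters, 0.06, and *Ctss*, the protease that trims the invariant chain and which is also on the identity list, 0.55. *Ciita*, the master activator of MHC class II genes, was not tested.

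**Figure D3:**
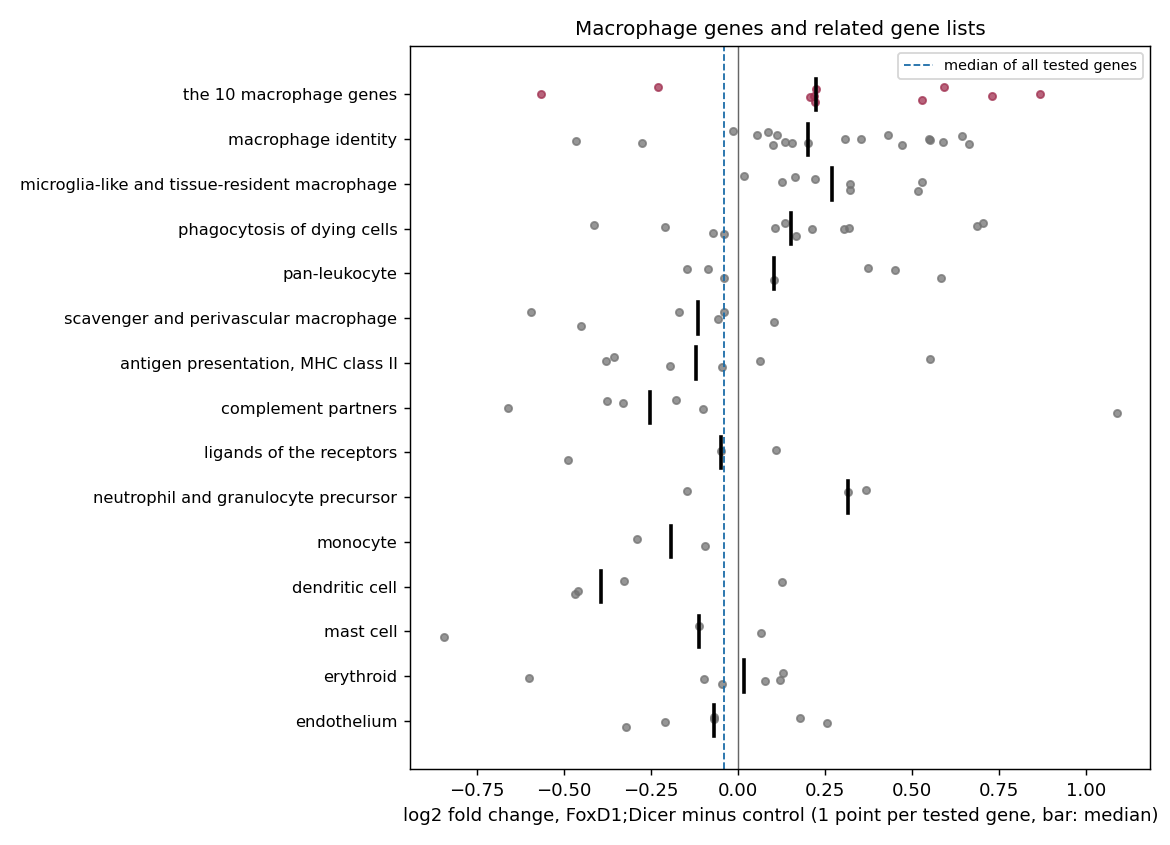
Log2 fold change of FoxD1;Dicer against control (horizontal axis) for each tested gene of the 10 macrophage genes (red) and of related lists (grey), with black bars at list medians and a dashed line at the median of all tested genes, -0.04. The medians of the 10 genes (0.22), of macrophage identity (0.20) and of the tissue-resident list (0.27) lie to the right of that line. Those of the MHC class II (-0.12) and complement (-0.25) lists lie to its left. Some listed genes passed the detection filter only through the group in which they were high, and the medians include them.

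Partners of the members were set beside them by role. Among ligands, *Csf1*, which acts through Csf1r, had a log2 fold change of 0.11 (SE 0.30), and *Il34*, the other Csf1r ligand, was not detected widely enough to be tested, nor was the chemokine *Ccl2*. *Cx3cl1*, the ligand of Cx3cr1, was at 6.92, 5.06 and 4.97 in FoxD1;Dicer kidneys and at 5.03, 7.15 and 6.23 in control kidneys. Its difference changed sign between litters (1.90, -2.10 and -1.26), and its log2 fold change was -0.49 (SE 0.69). *Mif*, a cytokine that binds Cd74, had -0.05 (SE 0.20). Of 14 complement genes, 6 were tested, 5 were negative and the median was -0.25. *Cfp* (properdin), which stabilises the alternative pathway convertase, was at 7.48, 6.97 and 6.37 in FoxD1;Dicer kidneys and at 7.56, 7.53 and 7.71 in control kidneys. Its groups did not overlap, and its log2 fold change was -0.66 (SE 0.28). *Calr*, calreticulin, had 1.09 (SE 0.57) with litters at -0.56, 0.98 and 2.84, *Cd93*, a C-type lectin receptor also of endothelium, -0.33, and *Serping1*, the C1 inhibitor, -0.18.

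Genes of the uptake of dying cells numbered 12 tested of 20, 8 positive and 4 negative, with a median of 0.15 and none called. Within litters 1, 2 and 3 the median was 0.24, 0.06 and -0.07. The 4 negative genes were *Lrp1* (-0.41), *Dock1* (-0.21), *Elmo1* (-0.07) and *Megf10* (-0.04). *Mertk*, a receptor kinase by which macrophages engulf dying cells, was at 6.77, 6.57 and 7.29 in FoxD1;Dicer kidneys and at 6.24, 5.97 and 6.30 in control kidneys. The groups did not overlap, and the log2 fold change was 0.70 (SE 0.21, adjusted p = 0.86 in limma). Among all tested genes, 5.1% were higher and 8.23% lower in FoxD1;Dicer kidneys without overlap. *Gas6*, which bridges Mertk to dying cells, was at 8.55, 8.48 and 8.75 in FoxD1;Dicer kidneys and at 8.40, 7.65 and 7.67 in control kidneys, without overlap and with a log2 fold change of 0.69 (SE 0.24). The related receptor *Axl* had 0.21 (SE 0.20), and *Mfge8* and *Itgb5*, a bridging protein and an integrin chain, 0.11 and 0.17. These genes are also expressed by kidney cells that are not macrophages.

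Markers of other cells had log2 fold changes of both signs. Pan-leukocyte genes were tested for 7 of 10, with 4 positive and a median of 0.10, and their mean level was 6.28 to 6.52 on the FoxD1;Dicer arrays and 6.18 to 6.31 on the control arrays. *Coro1a*, an actin-binding protein of leukocytes, had 0.45 (SE 0.23), *Arhgdib* 0.37 and *Cd52* -0.09. *Ptprc* had -0.04, with 0.46, -0.60 and 0.02 in the litters, and *Cytip* had -0.15. *Vav1* (0.58) was detected on 3 FoxD1;Dicer arrays and 1 control array, so that it was tested only because of the FoxD1;Dicer arrays. Monocyte genes were tested for 2 of 7, *Plac8* (-0.29, without overlap) and *Ly6c1* (-0.09), and *Ccr2* was not tested. Neutrophil genes were tested for 3 of 9, with *S100a8* at 0.37, *S100a9* at 0.32 and *Prtn3* at -0.15. Dendritic cell genes were tested for 4 of 8, with a median of -0.39. Among them were *Batf3* (-0.46, without overlap), *Zbtb46* (-0.33) and *Siglech* (0.13), which is also on the resident list. That median includes *Ccr7* (-0.47), detected on 1 FoxD1;Dicer array and 3 control arrays and so tested because of the control arrays. The only tested lymphocyte gene of 10, *Cd79b*, had 0.61 (SE 0.52) from 2.40 in litter 1. The part of these cells in the differences of the macrophage genes was not tested.

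Erythroid genes were tested for 6 of 8 with a median of 0.02, *Hba-a1*, *Hbb-y* and *Alas2* lay between -0.10 and 0.13, and *Slc4a1*, the red cell anion exchanger, had -0.60 (SE 0.22). The 2 tested platelet genes of 5, *Pf4* and *Itga2b*, had -0.04 and 0.01. Endothelial genes were tested for 6 of 7 with 2 positive (*Cdh5* at 0.26 and *Tie1* at 0.18) and 4 negative, among them *Emcn* (-0.21), *Esam* (-0.32) and *Tek* (-0.07), and a median of -0.07. The kidney itself was present on the arrays: 9 of 14 epithelial and progenitor genes were tested, with *Lhx1* at 0.08, *Gata3* at 0.14, *Eya1* at 0.60 and *Slc34a1* at -0.78, and 7 of 8 renal stroma genes, with *Meis2* at -0.05, *Meis1* at -0.08 and *Pdgfra* at 0.06. *Penk*, an enkephalin precursor gene of the stroma, had -2.09 (SE 0.20, adjusted p = 0.32 in limma) without overlap of the groups. It had the highest *B* of all probes, -1.29. Of 4 adrenal cortex genes 0 were tested.

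**Figure D4:**
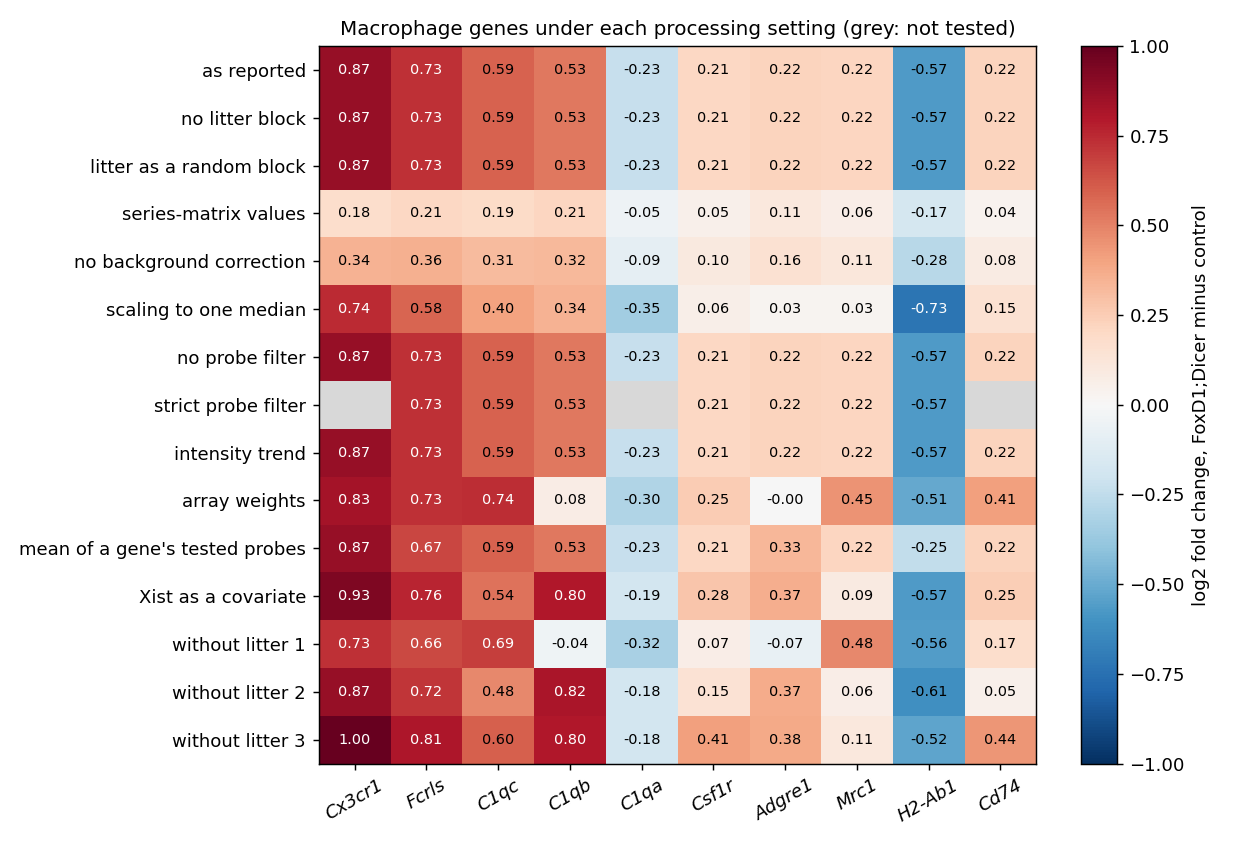
Log2 fold change of FoxD1;Dicer against control for the 10 macrophage genes (columns) under each processing setting (rows), with red above 0 and blue below it. *Cx3cr1*, *Fcrls*, *C1qc*, *Csf1r*, *Mrc1* and *Cd74* are positive and *C1qa* and *H2-Ab1* negative in every row in which they were tested. *C1qb* and *Adgre1* turn negative without litter 1 (-0.04 and -0.07), and *Adgre1* also with array weights (-0.0021). Rows that change only the litter block, the probe filter or the intensity trend repeat the reported values.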

How the data were processed

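Total RNA of whole kidneys was hybridised to 6 arrays, and groups and litters were taken from the sample labels. As deposited, the intensity of a probe is the average signal of its beads, with no background subtraction or normalization, and a deposited detection p-value sets it against negative control beads. The authors also deposited log2 values in the series matrix, in which low signals are compressed by a transformation that the sources used here do not name. In them brighter probes have higher values, with no centring of genes.

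Entries without identifier (2) or with a repeated one (2) were dropped from 45281, leaving 45277 probes. The platform annotation gave 1 gene for 34881 probes, several for 18, which were left unnamed, and none for 10378. Background correction used normexp (offset 16), with negative control beads inferred from the detection p-values, before quantile normalization and log2 (neqc). A probe was tested if its detection p-value was below 0.05 on 3 or more arrays (18639 probes). limma was run with terms for litter and genotype (lmFit, eBayes), and a probe was called at *B* above 0 with a prior share of 0.01. Benjamini-Hochberg adjusted p covers all tested probes. Each gene counts once, through its tested probe of highest mean, and probe brightness was used only to choose probes and named genes, not to compare expression between genes. Precision is limited by the number of arrays (median SE 0.22). Litter is a block because the labels and methods give it as a shared litter, and the deviations of its 2 arrays from the genotype means correlated at -0.29, -0.02 and -0.12 in litters 1, 2 and 3. The fit was tested on simulated data.

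The 10 genes, the other lists and the named genes were chosen with earlier results of these data known. From each other list, the 3 tested genes of highest mean and those with an unadjusted p under 0.05 were named, with all ligands. The 5 genes most correlated with the mean of the C1q chains were named too. Others were named where they went against the other named genes of their list or were detected mainly in a single group. Alternatives were leaving out each litter, litter as no block or as a random block, array weights, an intensity trend, *Xist* as a covariate, the mean of a gene's probes, no probe filter or a strict one (p under 0.01 on all 6 arrays), no background correction, scaling to one median, and the series-matrix values. Analyses ran in R (4.3.3) with limma (3.58.1) and data.table (1.17.8), and figures in Python (3.11.15) with pandas (2.3.3) and matplotlib (3.10.9).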

Additional observations from a re-analysis of the deposited data

How the results depend on the processing

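Alternatives that change only the litter block, the probe filter or the intensity trend repeat the reported fold changes, so their signs were fixed in advance. The mean of a gene's probes does so where 1 probe was tested. Under 14 alternatives, these included, 134 of 137 values of the 10 genes kept their sign. The count of genes with *B* above 0 among the members was 0 in 13 of them and 1 with array weights, where *Cx3cr1* was called (log2 fold change 0.83, adjusted p = 0.053 in limma; 0.053 to 1.00 over its alternatives). Array weights also called 150 of all tested genes and turned *Adgre1* to -0.0021, and *C1qb* was at 0.08. Leaving out 1 litter at a time gave *Adgre1* values of -0.072 (without litter 1) to 0.38 and *C1qb* values of -0.043 (without litter 1) to 0.82. *Csf1r* ran from 0.07 to 0.41, *Mrc1* from 0.06 to 0.48, *Cd74* from 0.05 to 0.44 and *C1qa* from -0.32 to -0.18. The same fits gave 6 to 8 members higher, a median of 0.12 to 0.43 and 0 called, with 1 residual degree of freedom per probe.

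Without the litter block (no pairing), 23 genes but 0 members had a *B* above 0, and the lowest adjusted p of a member was 0.37. Genes with a *B* above 0, 0 in the reported fit, numbered 7 with litter as a random block, 4 with no background correction, 73 with scaling to one median, 13 with an intensity trend, 5 with the mean of a gene's probes, 7 with *Xist* as a covariate, and 17, 18 and 0 without litters 1, 2 and 3. Scaling to one median moved the median of all genes to -0.27, with 18.8% positive, and that of the members to 0.10, or 0.37 above all genes. The series-matrix values, whose low signals are compressed, gave the members a median of 0.08 and *Cx3cr1* 0.18. The strict filter left 7 members, without *Cx3cr1*, *C1qa* and *Cd74*. Their low signal limits what these arrays can show.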

Other observations

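The tested genes most like the mean of *C1qa*, *C1qb* and *C1qc* over the 6 arrays, outside the members, were *Atg4d* (Pearson r 0.99), *Asf1b* (0.98), *Macc1* (0.98), *Pdgfrl* (0.98) and *Gpr153* (0.97). These are descriptions over 6 arrays chosen as the highest of all tested genes. The C1q mean was 7.01, 6.35 and 6.60 on the FoxD1;Dicer arrays and 6.34, 6.20 and 6.53 on the control arrays, so that the FoxD1;Dicer array of litter 1 was the highest. The log2 fold change of *Atg4d* was 0.79 (SE 0.38, adjusted p = 0.86 in limma), with 1.94, 0.50 and -0.07 in the litters. The chains did not share this mean alike: *C1qb* correlated with it at 0.92, *C1qc* at 0.73 and *C1qa* at 0.04. *C1qa* and *C1qc* correlated with each other at -0.43. Among the members outside C1q, *Fcrls* and *Cx3cr1* followed the C1q mean most closely (0.77 and 0.75), and *H2-Ab1* least (-0.12).

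Mast cells, which share myeloid origins with macrophages, gave 3 tested genes of 8. *Cpa3*, the mast cell carboxypeptidase, was at 4.89, 5.08 and 4.93 in FoxD1;Dicer kidneys and at 5.50, 5.84 and 6.09 in control kidneys, without overlap. It was detected on 1 FoxD1;Dicer array and 3 control arrays, so that it was tested because of the control arrays, and its fitted log2 fold change of -0.84 (adjusted p = 0.86 in limma) is set against FoxD1;Dicer values that were mostly not above background. *Hdc*, which makes histamine, and the tryptase *Tpsab1* had -0.11 (SE 0.24) and 0.07 (SE 0.27) with overlapping groups, and *Cma1*, *Tpsb2* and *Mcpt4* were not tested.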
